A study of Mus musculus with 28 samples.

Results

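The 5 subunits of the muscle acetylcholine receptor and 5 organizers of the neuromuscular synapse were followed in the tibialis anterior (TA) muscle of 28 mice from 2 cohorts. The 10 genes were taken by name, that is *Chrna1*, *Chrnb1*, *Chrnd*, *Chrne* and *Chrng* for the receptor, and *Agrn*, *Lrp4*, *Musk*, *Dok7* and *Rapsn* for the organizers. All 10 were found by a single Ensembl identifier in each count table, among 55359 genes in cohort F and 55416 in cohort G, and all 10 passed the filter on low counts in each cohort. Cohort G comprised WT mice, WT treated mice, *Dnm2* S619L/+ mice (disease) and treated *Dnm2* S619L/+ mice (disease treated). *Dnm2* S619L/+ mice are heterozygous for a point mutation of the gene for the membrane-severing GTPase dynamin 2. Cohort F comprised WT mice, *Bin1* mck-/- mice (disease) and treated *Bin1* mck-/- mice (disease treated), with no WT treated group. *Bin1* mck-/- mice lack the membrane-curving protein amphiphysin 2 only in cells that use the muscle creatine kinase promoter. The treatment was tamoxifen, a ligand of the estrogen receptor, and all other mice received placebo. Each of the 7 groups had 4 mice, 8 weeks old and on the C57BL/6N background.

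At the neuromuscular junction, the motor axon releases agrin, which binds LRP4 on the muscle fiber and thereby activates the kinase MuSK. MuSK, with its adaptor DOK7, drives the clustering of acetylcholine receptors through rapsyn. In adult muscle the receptor is built from alpha, beta, delta and epsilon subunits, while the fetal form carries gamma in place of epsilon. In innervated fibers the subunit genes are transcribed mainly by the few nuclei beneath the synapse. Denervation is known to raise the transcription of some of these genes, though not of all alike, along the whole fiber. It acts through myogenin and related factors that bind E-boxes.

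The promoters of *Chrna1*, *Chrng* and *Chrne* are shown for the receptor subunits, which moved most between groups, and that of *Musk* for the organizers. *Musk* passed no comparison in the main edgeR fit. The promoters of *Chrnb1*, a subunit that passed none either, and of *Agrn*, an organizer that did pass a comparison, are not shown. E-boxes are the sites at which myogenic factors are known to bind. The sequences are the 250 bases before the transcription start, 5′ to 3′ on the strand of the gene, from RefSeq (build GRCm38.p6). Capitals mark the E-box CANNTG and, in *Chrne*, the N-box CCGGAA, a motif known from genes of the synaptic nuclei.
*Chrna1*, chr2:73580339-73580588, minus strand: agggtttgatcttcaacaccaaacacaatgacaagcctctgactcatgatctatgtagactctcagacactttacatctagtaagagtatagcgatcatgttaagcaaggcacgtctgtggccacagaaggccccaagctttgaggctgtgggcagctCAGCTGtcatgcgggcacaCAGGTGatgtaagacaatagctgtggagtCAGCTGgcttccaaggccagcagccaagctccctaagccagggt
*Chrng*, chr1:87205561-87205810, plus strand: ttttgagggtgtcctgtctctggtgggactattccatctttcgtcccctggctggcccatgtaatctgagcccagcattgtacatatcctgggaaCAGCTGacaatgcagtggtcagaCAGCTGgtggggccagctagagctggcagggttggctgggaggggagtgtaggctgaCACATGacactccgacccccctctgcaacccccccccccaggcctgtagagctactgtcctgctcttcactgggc
*Chrne*, chr11:70619195-70619444, minus strand: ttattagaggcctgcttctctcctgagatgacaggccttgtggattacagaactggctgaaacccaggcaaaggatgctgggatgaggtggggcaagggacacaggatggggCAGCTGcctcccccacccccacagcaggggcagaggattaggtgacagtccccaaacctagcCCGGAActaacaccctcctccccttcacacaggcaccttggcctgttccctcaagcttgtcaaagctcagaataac
*Musk*, chr4:58285712-58285961, plus strand: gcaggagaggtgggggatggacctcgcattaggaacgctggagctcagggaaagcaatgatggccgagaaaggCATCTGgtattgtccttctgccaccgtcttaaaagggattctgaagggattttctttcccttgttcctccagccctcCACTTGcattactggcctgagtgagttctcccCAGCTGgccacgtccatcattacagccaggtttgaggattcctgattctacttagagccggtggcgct

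Both motifs were searched on both strands, and they do not overlap in these sequences. *Chrna1* and *Chrng* held 3 E-boxes each, and in both genes 2 of the 3 read CAGCTG, a form that is also an E-box. In *Chrna1* these CAGCTG boxes began at −92 and −44 from the start, and in *Chrng* at −155 and −132. *Chrne* held a single E-box, CAGCTG at −138, and its N-box began at −76. *Musk* held 3 E-boxes, with CAGCTG at −68. *Chrnb1* held 3 E-boxes, none of them CAGCTG. *Dok7* and *Agrn*, each with 2 start sites, held 1 E-box at 1 of these sites and no CAGCTG. The promoters shown are thus the ones with CAGCTG, and whether the motif goes with the changes between groups was not tested. Of all 32841 promoters of this length, 66.2% held an E-box and 31.8% held 2 or more. CAGCTG was held by 13.002%, CAGCTG more than once by 1.26% and the N-box by 12.0%. Promoters were given for 7 of the 10 genes, without *Chrnd*, *Lrp4* and *Rapsn*.

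Between 24671835 and 35136327 reads per mouse fell on genes in cohort F and between 15586333 and 109710886 in cohort G, so that *Chrng*, the rarest member, rested on 0 to 154 reads per mouse. *Bin1*, the gene deleted in cohort F, had 521.2 to 555.8 CPM in its WT mice, 51.6 to 62.1 when deleted and 36.1 to 49.5 when deleted and treated. The point mutation of *Dnm2* cannot be seen in counts. The 8 fast-fiber genes checked as markers of the tissue summed to 82775 CPM or more in every mouse. Cohort F mice all had 70.8 CPM or more of *Xist*, a transcript of female cells. In cohort G, 2 of the 4 mice were below 1 CPM in WT, in WT treated and in disease, but none in disease treated mice (148.2 CPM or more), and the labels do not give the sex. Markers of other cell types moved in several comparisons, and their values are given below beside the results they move with. Library protocol, mouse model and the mix of *Xist* levels change together between the cohorts. Within cohort G this mix also differs between disease treated mice and the other groups, so that it is partly tied to treatment in disease mice. In whole muscle, fewer cells of a type and less RNA per cell cannot be told apart.

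Within WT muscle the members differed widely in level. Per kilobase of exon, the order in cohort G was *Chrnb1* (25.0 ± 6.07 CPM per kb, SD, n = 4), *Rapsn* (14.4 ± 1.43), *Chrne* (11.7 ± 3.48), *Dok7* (6.89 ± 1.41), *Chrna1* (5.14 ± 0.744), *Agrn* (3.82 ± 0.907), *Lrp4* (2.09 ± 0.368), *Chrnd* (1.72 ± 0.288), *Musk* (1.04 ± 0.502) and *Chrng* (0.0572 ± 0.0196). The fetal subunit *Chrng* was thus at the bottom, and the adult subunit *Chrne* near the top. The spreads (mean ± SD) of neighbours overlapped, except between *Chrnb1* and *Rapsn*, between *Agrn* and *Lrp4*, and between *Musk* and *Chrng*. WT mice of cohort F gave a similar order, from *Chrnb1* (27.98 ± 3.85 CPM per kb) and *Rapsn* (22.9 ± 3.23) down to *Musk* (0.528 ± 0.201) and *Chrng* (0.0510 ± 0.0608), with *Agrn* above *Chrna1*. In that cohort the spreads overlapped only between *Chrnb1* and *Rapsn* and between *Agrn* and *Chrna1*.

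**Figure D1:**
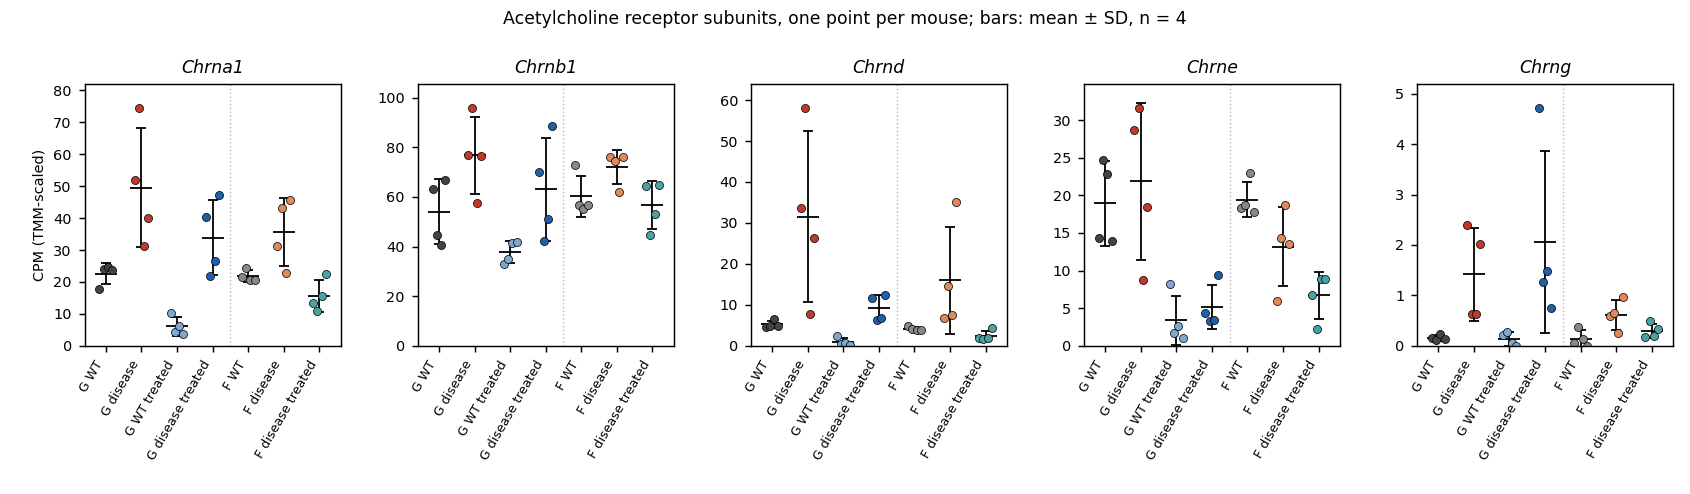
CPM of the 5 receptor subunits in each mouse (points), with the mean and SD of each group (bars, n = 4), for the 4 groups of cohort G and, right of the dotted line, the 3 of cohort F; each panel has its own axis from 0. *Chrna1* and *Chrnd* were higher in every disease mouse than in any WT mouse of cohort G and lower in every WT treated mouse, and *Chrng* stayed below 0.4 CPM in WT and WT treated mice.

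The first question was whether the disease itself altered these genes. In cohort G, the alpha, delta and gamma subunits of the receptor rose in disease muscle, and the epsilon and beta subunits and all 5 organizers did not pass the test. That is 3 of 10 members higher and none lower, where 12.1% of all 15439 genes tested were called higher and 9.81% lower (edgeR quasi-likelihood test, Benjamini-Hochberg adjusted p, or FDR, under 0.05). Changes are given as the log2 fold change (log2FC) ± its SE.

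*Chrna1* (ENSMUSG00000027107), which encodes the alpha subunit that binds acetylcholine, had 17.7, 24.1, 24.6 and 23.7 CPM in the WT mice of cohort G and 52.0, 74.6, 31.4 and 40.2 in its disease mice. Every disease mouse was above every WT mouse. Its log2FC was 1.14 ± 0.32, with an edgeR FDR of 0.0218.

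*Chrnd* (ENSMUSG00000026251), the delta subunit, had 4.66, 4.95, 6.56 and 4.85 CPM in WT and 33.7, 58.1, 7.83 and 26.4 in disease mice. The WT mice lay close together and the disease mice were all above them, mouse 3 by little. The mean was 5.996 times that of WT, with a log2FC of 2.59 ± 0.56 (edgeR FDR 0.00531).

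*Chrng* (ENSMUSG00000026253), the fetal gamma subunit, had 0.152, 0.113, 0.237 and 0.134 CPM in WT mice, which is 15, 4, 3 and 6 reads. Disease mice had 2.39, 0.624, 0.634 and 2.02 CPM, from 106, 13, 14 and 51 reads, again without overlap. Its log2FC was 2.87 ± 0.65, with an edgeR FDR of 0.00642.

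*Chrne* (ENSMUSG00000014609), the adult epsilon subunit, had 14.4, 24.7, 22.8 and 13.9 CPM in WT and 28.7, 31.6, 8.74 and 18.4 in disease mice, so that the groups overlapped. *Chrnb1* (ENSMUSG00000041189), the beta subunit, had 53.9 ± 13.1 CPM in WT and 76.7 ± 15.6 in disease mice (SD, n = 4). Its log2 fold change of 0.50 (SE 0.22) did not pass the test (edgeR FDR 0.110). The calls of *Chrnd* and *Chrng* held without any single mouse, and that of *Chrna1* was lost without WT mouse 1, WT mouse 2 or disease mouse 2 (edgeR FDR 0.0608, 0.0515 and 0.0754) and without the filter on low counts (0.0749). Markers of other cells moved as well, with 3 of 4 endothelial markers called lower (summed level 305.7 to 599.9 CPM in WT and 132.9 to 391.6 in disease mice) and 3 of 6 tendon and cartilage markers called higher (2.77 to 15.97 and 20.6 to 32.2 CPM). Of 5 satellite cell markers, *Pax7* was called lower (log2FC −2.65) and *Mymx* higher (3.46), and 1 of 4 leukocyte, 1 of 8 fast-fiber and 1 of 6 bone markers were called, the first higher and the other two lower. Their part in these results was not tested.

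In cohort F no member passed the test between disease and WT mice in edgeR, where 1.99% of all 14841 genes were called higher and 0.627% lower. Before adjustment 4 members had p under 0.05, *Chrna1*, *Chrnd*, *Chrng* and *Musk*, and DESeq2 called 3 of them. Over all 14841 genes DESeq2 called 772 higher and 419 lower. *Chrnd* had 4.78, 4.07, 3.94 and 3.92 CPM in WT mice and 6.84, 14.5, 7.60 and 35.0 in disease mice. The groups did not overlap, but disease mouse 4 stood far above the others, and the log2 fold change of 1.92 (SE 0.49) had an edgeR FDR of 0.0615 (DESeq2 4.36e-04). *Chrna1* had 21.5, 24.4, 20.7 and 20.5 CPM in WT and 31.2, 43.0, 22.7 and 45.7 in disease mice. Disease mouse 3 lay within the WT range, and the log2FC was 0.71 ± 0.23 (edgeR FDR 0.111, DESeq2 0.0407).

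*Musk* (ENSMUSG00000057280), the receptor kinase of the synapse, was the organizer with the largest log2 fold change of cohort F in this comparison. Its WT mice had 2.43, 2.30, 1.60 and 0.934 CPM and its disease mice 3.23, 7.11, 2.56 and 7.22. The groups did not overlap, and the log2 fold change of 1.44 (SE 0.37) fell just short of the threshold (edgeR FDR 0.0501, DESeq2 0.00442). With the 2 groups fitted alone, *Musk* and *Chrna1* passed (edgeR FDR 0.0412 and 0.0472). That fit called 921 of all 14376 genes higher and 537 lower. *Chrng* had 2, 11, 4 and 0 reads in the WT mice of cohort F and 20, 20, 8 and 36 in disease mice, and its log2 fold change of 1.74 (SE 0.63) did not pass (edgeR FDR 0.136). The 0 reads of WT mouse 8 allow a level of up to 0.0904 CPM (3 counts, counting error only). Leukocyte markers moved with this comparison, with 3 of 4 called higher and a summed level of 12.4 to 19.6 CPM in WT against 44.9 to 90.3 in disease mice. Of 8 fast-fiber markers 2 were called lower (*Actn3* and *Pvalb*), with sums of 127926 to 161663 CPM in WT and 97929 to 136354 in disease mice. The satellite cell marker *Pax7* was lower (log2FC −1.42) and the cartilage marker *Sox9* higher (1.94). The part of these cells in the member values was not tested.

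The difference between the disease effects of the cohorts, from 1 fit of all 28 mice, passed the test for no member in edgeR or DESeq2, with 1 member at unadjusted p under 0.05 in each. That member was *Rapsn*, which encodes the receptor-clustering protein rapsyn, with a difference in log2FC of 0.48 ± 0.20 (edgeR FDR 0.288). Of all 16036 genes in this fit, 0.143% were called higher and 0.168% lower. For *Musk* the difference, cohort G minus cohort F, was −0.90 (SE 0.58, edgeR FDR 0.522).

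The next question was what tamoxifen did in muscle without the mutation, which cohort G alone can answer. In WT treated mice the alpha, delta and epsilon subunits and rapsyn fell, and no member rose. These are 4 of 10 members lower, against 11.9% of all genes called lower and 15.8% called higher.

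*Chrna1* went from 17.7, 24.1, 24.6 and 23.7 CPM in WT to 10.2, 4.20, 6.17 and 3.797 in WT treated mice. The highest treated mouse lay well below the lowest WT mouse. Its log2FC was −1.86 ± 0.34, with an edgeR FDR of 0.00131.

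*Chrnd* had 2.47, 0.420, 0.800 and 0.242 CPM in WT treated mice, against 4.66 or more in WT mice (log2FC −2.24 ± 0.60, edgeR FDR 0.0126). *Chrne* had 8.16, 1.71, 2.59 and 1.07 CPM, against 13.9 or more in WT mice (log2FC −2.42 ± 0.56, edgeR FDR 0.00582). Treated mouse 1 was the highest of its group in all 3 subunits. *Chrng* stayed near its WT level at 0.221, 0.270, 0.0471 and 0 CPM, from 11, 9, 1 and 0 reads, and the 0 allows up to 0.104 CPM.

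The fall of *Rapsn* (ENSMUSG00000002104) was smaller, from 24.5, 21.3, 21.7 and 26.1 CPM to 14.2, 13.5, 21.2 and 18.5. The groups did not overlap, although treated mouse 3 came within a small margin of WT mouse 2. Its log2FC was −0.48 ± 0.15, with an edgeR FDR of 0.0239. *Musk* had 3.57 ± 1.73 CPM in WT and 1.71 ± 0.241 in WT treated mice, with a log2FC of −1.003 ± 0.43 (edgeR FDR 0.0919). *Lrp4* had 16.6 ± 2.92 and 24.8 ± 7.70 CPM (log2FC 0.58 ± 0.21, edgeR FDR 0.0536). DESeq2 called both *Musk* and *Lrp4* (0.0466 and 0.0393), beside 2662 of all 15439 genes higher and 2252 lower. *Chrnb1* had 53.9 ± 13.1 and 37.8 ± 4.48 CPM (log2FC −0.52 ± 0.22, edgeR FDR 0.0929).

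Calls of the 3 subunits held in every alternative fit and without any single mouse, while that of *Rapsn* was lost without WT mouse 1 or 4 or WT treated mouse 1 or 2 (edgeR FDR 0.0549, 0.0611, 0.0762 and 0.0853). Transcripts of other tissues moved with the treatment. Of 6 bone markers 5 were called higher, with a summed level of 157.0 to 476.6 CPM in WT and 3878 to 8593 in WT treated mice. *Ibsp*, a defining transcript of bone, had 0 to 0.821 CPM in WT and 172.5 to 652.0 in WT treated mice. Tendon and cartilage markers (5 of 6 called higher, 2.77 to 15.97 against 49.4 to 105.0 CPM) and leukocyte markers (3 of 4, 17.5 to 29.1 against 58.2 to 152.7 CPM) did the same. Fast-fiber markers summed to 124342 to 153067 CPM in WT and 97707 to 112630 in WT treated mice, with none of 8 called. The means of *Chrna1*, *Chrnd* and *Chrne* were 0.271, 0.187 and 0.179 of those in WT mice. The part of these other tissues in the falls was not tested.

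**Figure D2:**
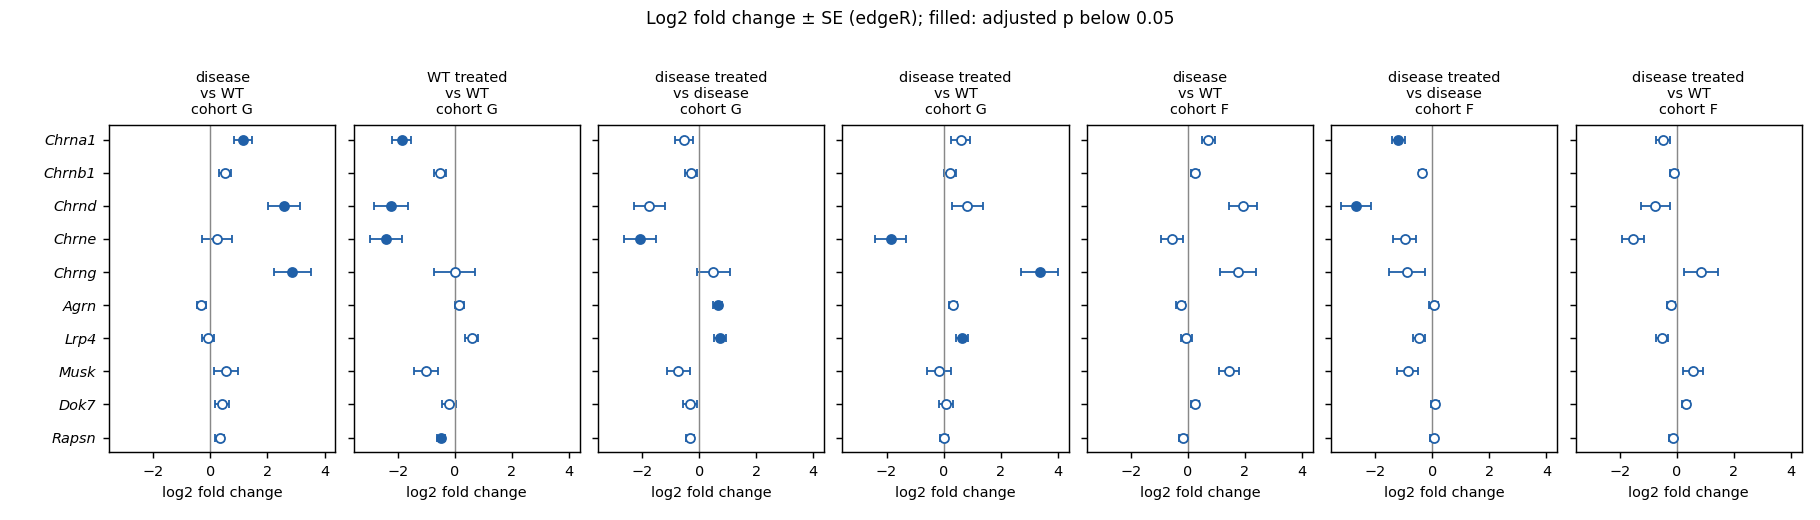
Log2 fold change ± SE of the 10 members (rows) in the 7 comparisons between groups (columns), from edgeR; filled points passed the test at adjusted p under 0.05 and open points did not. In cohort G *Chrna1* and *Chrnd* lie right of 0 for disease and left of 0 for tamoxifen in WT mice, and *Chrne* lies left of 0 in each comparison that involves tamoxifen.

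In disease mice of cohort G, tamoxifen came with lower *Chrne* and higher *Lrp4* and *Agrn*. These are 1 of 10 members lower and 2 higher, where 3.05% of all genes were called lower and 5.22% higher. *Chrne* had 28.7, 31.6, 8.74 and 18.4 CPM in disease mice and 4.42, 3.27, 3.37 and 9.45 in disease treated mice. The groups touched, since disease mouse 3 was below disease treated mouse 4, and the log2FC was −2.07 ± 0.55 (edgeR FDR 0.0340).

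The subunits that had risen in disease did not pass this test. *Chrnd* had 11.7, 6.30, 6.74 and 12.3 CPM in disease treated mice, below 3 of the 4 disease mice, and its log2 fold change of −1.76 (SE 0.54) had an edgeR FDR of 0.0592 (DESeq2 0.0459). *Chrna1* had 40.3, 21.7, 26.4 and 47.1 CPM in disease treated mice, of which 2 lay within the range of disease mice and 2 below it. *Chrng* had 4.72, 1.28, 1.48 and 0.741 CPM in disease treated mice, so that mouse 1 exceeded every disease mouse.

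*Lrp4* (ENSMUSG00000027253), the agrin receptor, had 18.7, 14.8, 12.6 and 15.9 CPM in disease and 23.8, 30.7, 30.9 and 17.9 in disease treated mice. Only treated mouse 4 lay within the disease range, and the log2FC was 0.73 ± 0.22 (edgeR FDR 0.0484). *Agrn* (ENSMUSG00000041936), which encodes agrin, had 26.4, 19.5, 26.7 and 23.2 CPM in disease and 36.8, 40.8, 41.3 and 30.9 in disease treated mice. These groups did not overlap, and the log2FC was 0.64 ± 0.15 (edgeR FDR 0.0189).

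All 3 calls were lost when the 2 groups were fitted alone (edgeR FDR 0.0851 for *Chrne*, 0.0939 for *Lrp4* and 0.0714 for *Agrn*) and with the *Xist* level as a covariate, a fit added after the data were seen (0.0750, 0.154 and 0.0729). Of 15439 genes, the main fit called 1277 and the covariate fit 483, and the fit of the 2 groups called 30 of 14310. Without the filter on low counts *Agrn* alone passed (0.0184), and with more than 10 reads in 90% of mice *Lrp4* did not (0.0545). The call of *Agrn* was also lost without disease mouse 2 or disease treated mouse 2 or 3 (0.0637, 0.0678 and 0.0728), and that of *Chrne* without disease mouse 1, 2 or 4 or disease treated mouse 1, 2 or 3 (0.0580 to 0.123). The call of *Lrp4* held only without WT treated mouse 1 or 4, disease mouse 1 or disease treated mouse 4, with an edgeR FDR of up to 0.157 otherwise.

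Bone markers rose in the same comparison as *Lrp4* and *Agrn*. Of the 6 markers 5 were called higher, and their sums were 581.3, 566.2, 542.1 and 426.8 CPM in disease mice and 2909, 4988, 6726 and 527.8 in disease treated mice. Treated mouse 4, the lowest of its group in *Lrp4* and *Agrn*, was thus also the lowest in bone markers. In cohort F, disease treated mouse 2 had the highest bone sum of its group (2720 CPM, against 493.5 or less) and the highest *Lrp4* (23.7 CPM) and *Agrn* (45.2). Disease mouse 4 of cohort F, in contrast, combined a bone sum of 1455 CPM with the lowest *Lrp4* of its group (17.2). WT treated mice of cohort G had bone sums of 3878 to 8593 CPM, and *Agrn* was not called there against WT mice. Its level was 33.5 ± 3.28 CPM against 29.8 ± 7.07 (SD, n = 4, log2FC 0.16 ± 0.15, edgeR FDR 0.446). The part of bone transcripts in the levels of *Lrp4* and *Agrn* was not tested.

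**Figure D3:**
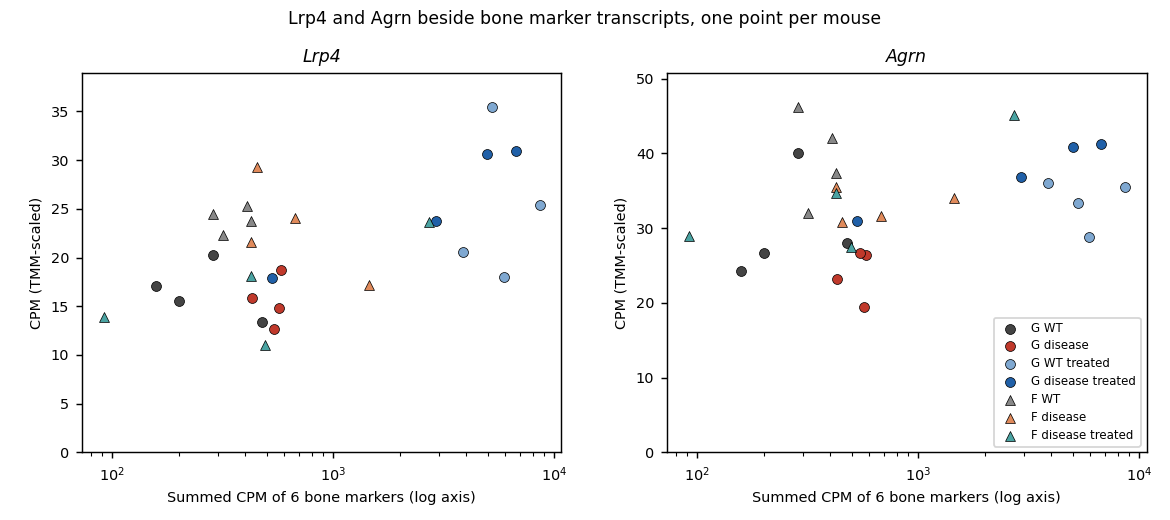
CPM of *Lrp4* (left) and *Agrn* (right) in each mouse against the summed CPM of 6 bone markers on a log axis; circles are cohort G, triangles cohort F, and colours the groups. The tamoxifen-treated mice of cohort G lie to the right, apart from disease treated mouse 4 at 527.8 CPM, and the highest *Lrp4* value (35.4 CPM) belongs to a WT treated mouse.

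Set against WT mice, disease treated mice of cohort G had lower *Chrne* and higher *Chrng* and *Lrp4*, which are 1 of 10 members lower and 2 higher, beside 13.1% and 15.8% of all genes. This comparison shares its WT mice with those of disease and of WT treated mice, and its disease treated mice with the comparison above. *Chrng* had the largest change, at 12.9 times the WT mean (log2FC 3.36 ± 0.66, edgeR FDR 0.00203). Every treated mouse had at least 24 reads of *Chrng*, while no WT mouse had more than 15, a number reached in the deepest library. *Chrne* was lower without overlap (log2FC −1.86 ± 0.55, edgeR FDR 0.0205), and *Lrp4* higher with overlap (log2FC 0.64 ± 0.22, edgeR FDR 0.0369).

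In the same comparison 4 of 8 fast-fiber markers were called lower, and 5 of 6 bone, 5 of 6 tendon and cartilage and 3 of 4 leukocyte markers higher. The latter sums were 16.1 to 60.5 CPM for tendon and cartilage and 31.7 to 101.1 for leukocytes in disease treated mice, against 2.77 to 15.97 and 17.5 to 29.1 in WT mice. *Pax7* was called lower and *Mymx* higher, and the part of these cells was not tested. The call of *Chrng* held in every alternative that tested it and without any single mouse, but more than 10 reads in 90% of the mice left it untested in cohort G. With the *Xist* covariate *Chrne* and *Lrp4* did not pass (edgeR FDR 0.0546 and 0.183), nor without the filter on low counts (0.0791 and 0.0629). Leaving out a mouse ended the call of *Chrne* for WT mice 2 and 3 and disease treated mice 1, 2 and 3 (0.0556 to 0.0678), and that of *Lrp4* for these 5 and for WT mouse 4 (0.0546 to 0.112).

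Whether tamoxifen acted differently in disease and WT mice was tested with an interaction term. No member passed in edgeR or DESeq2, with 2 members at unadjusted p under 0.05 in each, and 0.0324% of all genes were called higher and 0.227% lower. The member with the smallest p was *Chrna1*, whose tamoxifen effect was −0.54 in disease and −1.86 in WT mice, a difference of 1.31 (SE 0.46, edgeR FDR 0.252). The falls of *Chrne* were −2.07 and −2.42 on the log2 scale, with a difference of 0.34 (SE 0.75, edgeR FDR 0.901).

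In *Bin1* mck-/- mice, the alpha and delta subunits fell under tamoxifen. These are 2 of 10 members lower and none higher, where 1.61% of all genes were called lower and 1.52% higher. *Chrna1* had 31.2, 43.0, 22.7 and 45.7 CPM in disease and 13.5, 10.8, 15.5 and 22.6 in disease treated mice, with a log2FC of −1.19 ± 0.23 (edgeR FDR 0.0197). *Chrnd* had 6.84, 14.5, 7.60 and 35.0 CPM in disease and 2.00, 1.64, 1.90 and 4.28 in disease treated mice (log2FC −2.67 ± 0.51, edgeR FDR 0.0214). No treated mouse reached the lowest disease mouse in either gene, though the margin in *Chrna1* was small.

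For the other subunits the values were 13.2 ± 5.27 CPM in disease and 6.70 ± 3.11 in disease treated mice for *Chrne*, 72.1 ± 6.81 and 56.7 ± 9.73 for *Chrnb1* and 0.612 ± 0.289 and 0.296 ± 0.144 for *Chrng* (SD, n = 4). None of these passed. *Musk* had 1.83, 2.52, 3.30 and 3.25 CPM in disease treated mice, with disease mice both within and above that range (log2FC −0.87 ± 0.36, edgeR FDR 0.188). *Lrp4* had 29.3, 24.1, 21.6 and 17.2 CPM in disease and 11.03, 23.7, 18.1 and 13.9 in disease treated mice (log2FC −0.46 ± 0.20, edgeR FDR 0.212).

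With the 2 groups fitted alone neither subunit passed (edgeR FDR 0.0805 for *Chrna1* and 0.0966 for *Chrnd*). That fit called 122 of all 14388 genes, against 464 of 14841 in the main fit. *Chrna1* was also lost without disease mouse 2 or 4 or disease treated mouse 3 (0.0542, 0.0525 and 0.0645), and *Chrnd* without disease treated mouse 3 (0.0792). Fast-fiber markers summed to 97929 to 136354 and 116736 to 188761 CPM, with 2 of 8 called higher. Their part in the subunit values was not tested.

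Between disease treated and WT mice of cohort F no member passed in edgeR, beside 0.465% of all genes called higher and 0.384% lower. Before adjustment 3 members had p under 0.05 (*Chrne*, *Dok7* and *Lrp4*), and DESeq2 called *Chrne*. Over all 14841 genes DESeq2 called 294 higher and 250 lower. *Chrne* had 18.3, 18.7, 22.9 and 17.8 CPM in WT and 6.80, 2.27, 8.89 and 8.85 in disease treated mice. These groups did not overlap, and the log2FC was −1.53 ± 0.40 (edgeR FDR 0.112, DESeq2 0.00133).

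The tamoxifen effect in disease mice was set side by side between the cohorts in the fit of all 28 mice. For 1 of 10 members, *Lrp4*, the difference passed, beside 1.05% of all genes called higher and 0.655% lower. *Lrp4* had tamoxifen effects of 0.73 in cohort G and −0.46 in cohort F, and their difference in the joint fit was 1.23 (SE 0.31, edgeR FDR 0.0461). This call did not survive 21 of the 28 omissions of a single mouse, with an edgeR FDR of up to 0.110 without disease treated mouse 2 of cohort G, and also with the *Xist* covariate (0.131) or no filter on low counts (0.0886). *Agrn* had a difference of 0.63 (SE 0.22, edgeR FDR 0.0886). *Chrne* fell in cohort G and was lower without passing in cohort F, and the difference of −1.07 (SE 0.73) did not pass (edgeR FDR 0.379).

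**Figure D4:**
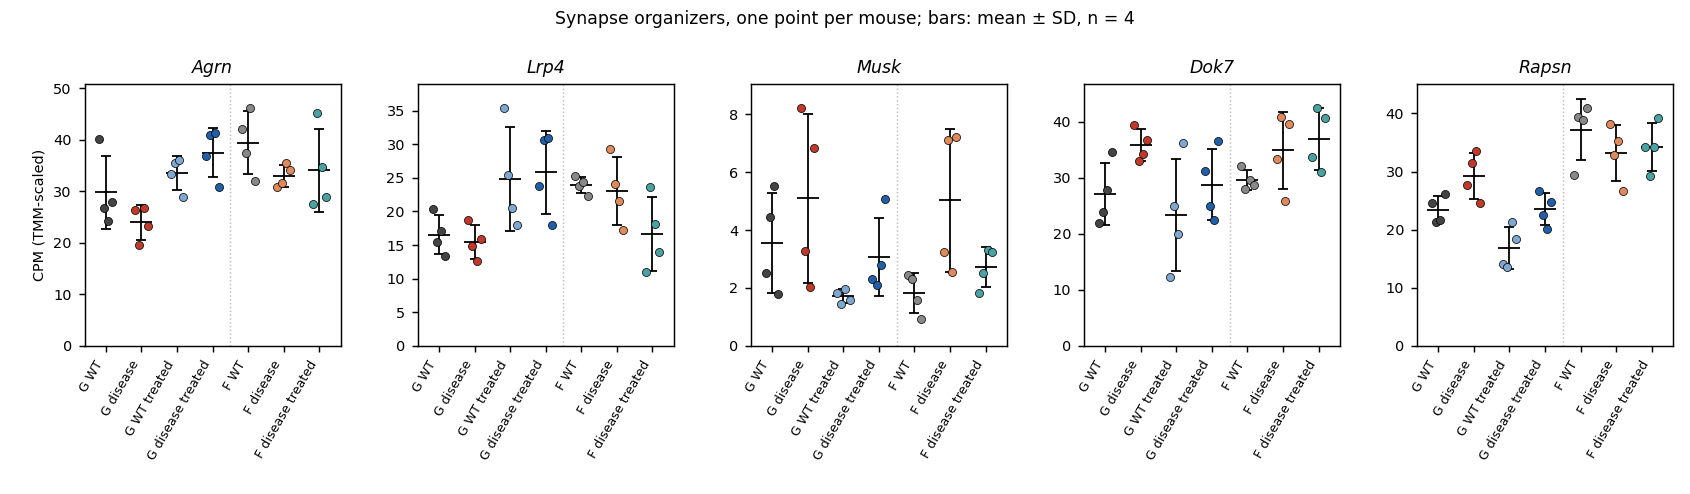
CPM of the 5 synapse organizers in each mouse (points), with the mean and SD of each group (bars, n = 4), for cohort G and, right of the dotted line, cohort F; each panel has its own axis from 0. *Lrp4* and *Agrn* were higher in disease treated than in disease mice of cohort G with 1 exception in *Lrp4*, *Dok7* overlapped between the groups of each cohort, and *Rapsn* was lowest in WT treated mice.

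*Dok7* (ENSMUSG00000044716), the cytoplasmic activator of MuSK, passed no comparison in any fit. Its group means ran from 23.3 ± 10.1 CPM in WT treated to 35.9 ± 2.87 in disease mice of cohort G, and from 29.6 ± 1.78 in WT to 36.9 ± 5.50 in disease treated mice of cohort F. *Rapsn* had group means of 33.2 to 37.2 CPM in cohort F and of 16.8 to 29.3 in cohort G. The group means of *Musk* lay between 1.71 and 5.09 CPM in the 7 groups.

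Since gamma replaces epsilon in the fetal receptor, the reads of *Chrng* were set against those of *Chrne* in each mouse, as log2((*Chrng* reads + 0.5)/(*Chrne* reads + 0.5)), where the 0.5 keeps mice without *Chrng* reads in. For those mice the value is set by depth and by *Chrne* alone, as for WT mouse 8 of cohort F (0 against 591 reads, −10.2) and WT treated mouse 4 of cohort G (0 against 31, −5.98). In WT mice of cohort G there were 1.06, 0.458, 1.04 and 0.966 reads of *Chrng* per 100 reads of *Chrne*. WT treated mice had 2.71, 15.8, 1.82 and 0. Disease mice had 8.33, 1.97, 7.25 and 10.97, and disease treated mice 106.9, 39.0, 44.0 and 7.84. In disease treated mouse 1 the fetal transcript thus had more reads (154) than the adult transcript (144).

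The mean log2 ratio was −6.77 ± 0.565 in WT, −4.03 ± 1.08 in disease, −4.73 ± 1.47 in WT treated and −1.52 ± 1.56 in disease treated mice of cohort G (SD, n = 4). Each of the other groups was above WT without overlap, by 2.74 in disease, 2.03 in WT treated and 5.25 in disease treated mice. For WT treated mice the lack of overlap, and with it the p that follows, rests on the added 0.5. Their mouse 4 had 0 reads of *Chrng* and so lay below every WT mouse in reads per 100. Each of these 3 differences had p = 0.0286 in the exact two-sided permutation test, the smallest that 4 mice against 4 allow, and 0.05 after adjustment over the 7 comparisons, which is at the threshold and not below it. Disease treated and disease mice differed by 2.51 (exact permutation p = 0.0857, adjusted 0.1).

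In cohort F the mean log2 ratio was −7.78 ± 1.93 in WT, −4.42 ± 1.22 in disease and −4.34 ± 1.46 in disease treated mice (SD, n = 4). Disease mice exceeded WT by 3.36 (exact permutation p = 0.0571, adjusted 0.08) and disease treated mice by 3.43 (0.0286, adjusted 0.05). Disease treated and disease mice differed by 0.08 (exact permutation p = 0.943). The ratio can move through either gene: in disease mice of cohort G it moved with *Chrng*, in WT treated mice with *Chrne*, and in disease treated mice with both.

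**Figure D5:**
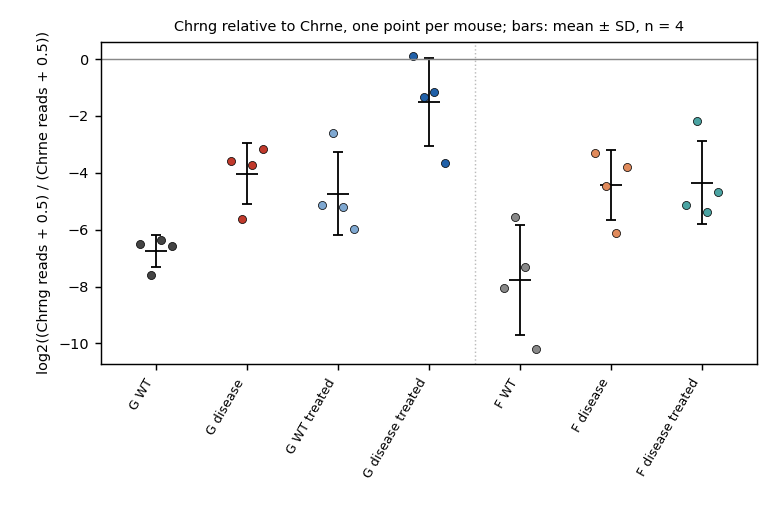
Log2 ratio of *Chrng* to *Chrne* reads in each mouse (points), with mean and SD (bars, n = 4), for cohort G and, right of the dotted line, cohort F; 0 means equal reads. WT mice of cohort G lie between −7.60 and −6.37, below all other mice of that cohort, and disease treated mouse 1 is the only mouse above 0. WT treated mouse 4, with 0 reads of *Chrng*, lies above the WT mice only through the 0.5 added to the reads.

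The genes most like *Chrna1* across the mice, by the mean of the Pearson correlations of log2 CPM within the 2 cohorts (12 and 16 mice) over 11027 genes, were *2310075C17Rik* (mean r 0.897), *Thpo* (0.894), *Arpp21* (0.891), *5930412G12Rik* (0.887) and *Nes* (0.876). *Nes* encodes nestin, an intermediate filament of the synaptic region and of immature fibers. It was lower in WT treated mice (log2FC −1.02 ± 0.31, edgeR FDR 0.0230) and higher in disease mice of cohort G (1.58, SE 0.31, 0.00267). In cohort F it was not called in disease mice (0.63, 0.143) and was lower under tamoxifen (−1.08, 0.0276). Since *Nes* was picked by its likeness to *Chrna1* in these mice, moving with it is no separate result. For *Musk* the likest genes were *Tmem131l* (mean r 0.811), *Ahnak* (0.805), *Wdr26* (0.797), *Cast* (0.781) and *Prkx* (0.780). The mice share groups and libraries, so that these values describe a likeness of pattern only.

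Further genes of the endplate (25 genes of the synaptic matrix, scaffold and neuregulin signalling) were counted beside the members, and 23 of them were tested. In disease mice of cohort G 2 were called higher and 5 lower, beside 12.1% and 9.81% of all genes. The median log2 fold change of the list was −0.04 against 0.02 over all genes. *Erbb2*, a neuregulin receptor, rose from 4.11 ± 1.12 to 9.11 ± 2.19 CPM, and the laminin gene *Lama5* fell. In WT treated mice 1 was called higher and 6 lower, beside 15.8% and 11.9% of all genes, with a median of −0.03 against −0.04 over all genes. *Ache*, which encodes acetylcholinesterase, fell from 44.6 ± 9.06 to 16.4 ± 3.94 CPM (log2FC −1.43 ± 0.21, edgeR FDR 4.06e-04). *Colq*, the collagen tail that anchors this enzyme, fell from 8.48 ± 2.80 to 2.26 ± 0.964 CPM (log2FC −1.85 ± 0.27, edgeR FDR 3.51e-04). *Etv5*, a transcription factor of the synaptic nuclei, fell by 1.58 on the log2 scale (SE 0.32, edgeR FDR 0.00229).

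In disease mice of cohort G under tamoxifen, 1 of the 23 tested was higher and 3 lower, beside 5.22% and 3.05% of all genes. The same 3 genes were the ones called lower. Their log2 fold changes were −1.08 for *Ache*, −1.24 for *Colq* and −1.11 for *Etv5* (edgeR FDR 0.00777, 0.0107 and 0.0416). *Col13a1*, a membrane collagen of the synapse that is also known from bone, rose from 0.798 ± 0.314 to 15.9 ± 7.39 CPM in WT treated and from 1.53 ± 0.321 to 10.6 ± 7.43 in disease treated mice, beside the bone markers given above. Against WT, disease treated mice of cohort G had 2 higher and 4 lower, beside 15.8% and 13.1% of all genes. In cohort F none of the 23 tested was called between disease and WT mice in edgeR, beside 1.99% of all genes higher and 0.627% lower. Under tamoxifen 2 were lower, *Etv5* (log2 fold change −1.16, edgeR FDR 0.00330) and its relative *Etv4* (−1.08, 0.0308), beside 1.61% of all genes. Against WT these 2 and *Ache* were lower (−1.13, −1.36 and −0.75 on the log2 scale), beside 0.384% of all genes.

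Of 15 genes known to respond to denervation, 6 were called higher and 1 lower in disease mice of cohort G, beside 12.1% and 9.81% of all genes, with a median log2 fold change of 0.93 against 0.02 over all genes. *Myog*, the gene of myogenin and named for its role rather than by rank of p, rose from 4.59 ± 2.73 to 34.5 ± 11.6 CPM (log2FC 2.83 ± 0.42, edgeR FDR 3.91e-04). *Runx1* rose by 3.36 on the log2 scale (edgeR FDR 1.48e-05), *Cdkn1a* by 3.09 (3.49e-05), *Gadd45a* by 1.86 (1.15e-04) and *Hdac4* by 0.93 (3.76e-04), while *Fgfbp1* was lower. In cohort F 3 were called higher in disease mice, *Myog* (log2 fold change 2.26, edgeR FDR 0.0135), *Ncam1* (1.97, 0.0365) and *Runx1* (2.37, 0.0452), with a median of 0.87 against 0.01 over all genes, of which 1.99% were called higher.

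In WT treated mice of cohort G this list had 3 genes higher and 1 lower, where 15.8% of all genes were higher and 11.9% lower. The median log2 fold change of the list was 0.09 against −0.04 over all genes. *Runx1* was up by 3.27 and *Ncam1* by 2.29 on the log2 scale (edgeR FDR 9.19e-05 and 0.00159). Bone markers summed to 157.0 to 476.6 CPM in WT and 3878 to 8593 in these mice. Tendon, cartilage and leukocyte markers were higher as well, and the part of these tissues in the rises was not tested. *Myog* had 2.96 ± 0.671 CPM in WT treated mice and was not called. In disease mice 1 of 15 was called under tamoxifen in each cohort, *Myh8* in cohort G (log2 fold change 0.97, edgeR FDR 0.00828) and *Fbxo32* in cohort F (0.86, 0.0408). Of all genes, 5.22% were called higher there in cohort G and 1.52% in cohort F. Against WT, disease treated mice had 9 higher and 1 lower in cohort G, beside 15.8% and 13.1% of all genes, and 1 higher (*Trim63*) in cohort F, beside 0.465%. The interaction in cohort G called *Runx1* alone of this list, with a difference of −2.70 (edgeR FDR 0.0248), beside 0.227% of all genes called lower. The comparisons between the cohorts called none of the 23 endplate genes tested and none of these 15 in edgeR.

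Of 11 neuronal nicotinic subunit genes, 4 passed the filter on low counts in cohort F and 5 in cohort G. *Chrna7* had 0.0542 ± 0.0324 CPM in WT and 1.94 ± 0.728 in WT treated mice (log2FC 4.28 ± 0.58, edgeR FDR 4.24e-04). In disease mice it had 0 reads, which allows up to 0.0267 CPM over the group, and in disease treated mice 110 reads (1.02 CPM), at least 38.2 times that limit. Single disease treated mice ranged from 0.154 to 1.77 CPM. In both of these tamoxifen comparisons of cohort G, 5 of 6 bone markers were called higher as well. The part of other tissues in the *Chrna7* reads was not tested. *Chrna9* rose in disease mice of cohort F from 0.503 ± 0.324 to 3.77 ± 1.85 CPM (log2FC 2.75 ± 0.55, edgeR FDR 0.0261). In WT treated mice 1 of 5 was higher and 1 lower, beside 15.8% and 11.9% of all genes. In disease treated against WT mice of cohort G 2 were higher and 1 lower, beside 15.8% and 13.1%. *Chrna2* was called lower in disease mice of cohort G, from 0.636 ± 0.246 to 0.0670 ± 0.0456 CPM.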

How the data were processed

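RNA-seq of TA muscle from 28 mice was used. For each cohort the authors deposited a table of raw counts, whole numbers with an Ensembl gene per line. Per the labels, libraries were stranded and selected for poly(A). Input and fragmentation were 350 ng and 8 min for cohort F, against 300 ng and 2 min for cohort G. The submitters' processing notes name bcl2fastq 2.20.0.422, cutadapt 1.10, Bowtie 1.2.2, STAR 2.5.3, HTSeq 0.6.1p1 and the build mm39, without their roles. In cohort F, 4 lines that name no gene (22.0% to 30.8% of counts) were left out. Groups and replicate numbers came from the labels. Identifiers were named with GENCODE M21, which also gave exon lengths, and its coordinates were not used. The exons of *Rapsn* share 4 bases with a gene on the opposite strand.

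Counts were tested with edgeR 4.0.16 in R 4.3.3 (TMM, default filter on low counts, robust quasi-likelihood test, prior count 2) on all genes, all mice of a cohort in 1 fit, and all 28 mice for comparisons between cohorts. The SE was derived from the fold change and the F statistic. Benjamini-Hochberg adjusted p under 0.05 over all genes was the threshold. CPM are counts scaled to the TMM-adjusted library size. The *Chrng* to *Chrne* ratio was compared with exact two-sided permutation tests. The edgeR test of disease against WT in each cohort was checked on simulated counts, with a single spread and with changes only in well-read genes. Low counts such as those of *Chrng* and the other tests were not covered by this check.

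Alternatives were DESeq2 1.42.0, RLE normalization, no filter, more than 10 reads in 90% of mice, a block for the replicate number, a fit of only the groups compared, omission of each mouse, and a pseudocount of 1 for the ratio. The *Xist* covariate was added after the data were seen. Members and gene lists were chosen with earlier results of these data known. All members are named in each comparison where values are given, with at most the 4 called genes of smallest p from each further list and the 5 genes most like *Chrna1* and *Musk*. Counting limits cover counting error only. Sequences are from RefSeq. A result on a further marker list is not reported here.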

Additional observations from a re-analysis of the deposited data

Results flagged for a closer look

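In a group of 4 mice, a mouse was looked at again when its gap to the nearest other mouse exceeded Dixon's 95% critical value as a share of the group's range. Of 70 combinations of member and group, 5 met this, and chance gives about 1 in 20. *Chrna1* in WT mouse 1 of cohort G was at 17.7 CPM, below the other WT mice, and this library was the deepest of all. *Chrnd* in WT mouse 3 of cohort G was at 6.56 CPM, above the others. In cohort F, *Chrnb1* was at 72.7 CPM in WT mouse 5, above the others, and at 61.9 CPM in disease mouse 3, below the others, and *Chrnd* was at 4.28 CPM in disease treated mouse 4, above the others.

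The tamoxifen effect on *Lrp4* in disease mice was called different between the cohorts, by 1.23 on the log2 scale (cohort G minus cohort F, SE 0.31, edgeR adjusted p = 0.0461). This call was lost in 21 of the 28 omissions of a single mouse, with the *Xist* covariate and without the filter on low counts. *Lrp4* was higher in disease treated than in disease mice in cohort G (25.8 ± 6.22 against 15.5 ± 2.52 CPM) and lower in cohort F (16.7 ± 5.49 against 23.0 ± 5.05 CPM, SD, n = 4), where the fall did not pass the test. Bone markers rose under tamoxifen in cohort G, with 5 of 6 called, and in cohort F none of the 4 tested was called. Their part in this difference was not tested. Library protocol, mouse model and the mix of *Xist* levels change together between the cohorts and cannot be told apart.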

How the results depend on the processing

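Of 16 effects called among the members, 6 were called in every alternative fit that tested the gene and without any single mouse: *Chrnd* and *Chrng* in disease mice of cohort G, *Chrna1*, *Chrnd* and *Chrne* in WT treated mice, and *Chrng* in disease treated against WT mice of cohort G. Of all 100 effects, 21 changed sign without some mouse, none of them called. In cohort F, members called between disease and WT mice were 0, but 3 with DESeq2, 1 without the filter on low counts, 2 with only the groups compared and 0 to 3 without a mouse. Disease treated against disease gave 2, but 0 with only the groups compared, 1 with the replicate block and 0 to 3 without a mouse. Disease treated against WT gave 0, but 1 with DESeq2. In cohort G, disease treated against disease gave 3, but 1 without the filter, 0 with only the groups compared or the *Xist* covariate and 0 to 4 without a mouse. Disease treated against WT gave 3, but 1 without the filter or with the covariate and 1 to 4 without a mouse. The cohort difference in the tamoxifen effect gave 1, but 0 without the filter or with the covariate and 0 to 2 without a mouse. Other counts stayed within 1.5 times of the main value in the alternatives run. Calls over all genes moved as well. Disease against WT in cohort F had 388 of 14841, but 1191 with DESeq2 and 1458 of 14376 with only the groups compared. Disease treated against disease in cohort G had 1277 of 15439, but 30 of 14310 with only the groups compared and 483 with the covariate. Where the counts of members moved, the cause was not tested.

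Without a mouse, the difference in the *Chrng* to *Chrne* log2 ratio ran from 2.46 to 3.27 for disease against WT, 1.32 to 2.45 for WT treated against WT and 1.97 to 3.22 for disease treated against disease in cohort G. In cohort F it ran from 2.55 to 4.10 for disease against WT, 2.62 to 4.18 for disease treated against WT and −0.64 to 0.45 for disease treated against disease. The last was negative without disease treated mouse 2 (−0.64) or disease mouse 3 (−0.49). The exact permutation p rose to 0.0571 for disease and for WT treated against WT in cohort G whichever of the 4 WT mice was left out, and for disease treated against WT in cohort F whichever of the 4 treated mice was left out. It fell to 0.0286 for disease treated against disease without disease treated mouse 4 of cohort G (3.22) and for disease against WT without WT mouse 6 of cohort F (4.10).

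Replicate numbers did not pair the mice: of 28 same-numbered pairs 10 correlated above 0.1 (range −0.39 to 0.42). With the replicate number as a block, members called in disease treated against disease mice of cohort F were 1 in place of 2, since *Chrna1* did not pass (edgeR adjusted p = 0.0571). In cohort G *Chrne* did not pass between disease treated and disease mice (0.0767), *Lrp4* passed between WT treated and WT mice (0.0350), and the counts stayed within 1.5 times. Depth limits *Chrng*, which had 0 to 15 reads in WT and WT treated mice.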
